A study of Mus musculus with 6 samples.

Results

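The neutrophil granule genes are 10 genes whose products neutrophils store or carry in bulk, S100a8, S100a9, Ngp, Camp, Ltf, Lcn2, Mpo, Elane, Prtn3 and Ctsg. They were taken by gene symbol from the array annotation, where each had 1 probe set, so the group held 10 of the 18193 genes with a probe set of 1 symbol. RNA of whole fetal mouse lungs at stage E18.5 was measured on Affymetrix arrays, 1 array per animal. All 6 animals were Nfib f/f, with floxed alleles of Nfib, which encodes nuclear factor I B, a transcription factor. The 3 control animals are labelled with no Cre and the 3 others with Dermo1-Cre, a Cre driven by Dermo1 (Twist2) that deletes floxed genes in mesenchyme, while the RNA came from all cells of the lung. The labels call the animals biological replicates and give no litter.

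Neutrophils fill their granules in a fixed order as they mature. Azurophil granules are made first, at the promyelocyte stage, and hold myeloperoxidase and the serine proteases elastase, proteinase 3 and cathepsin G. Specific granules are made later and hold lactoferrin, lipocalin 2, the cathelicidin precursor and neutrophilic granule protein, while the calcium-binding proteins S100A8 and S100A9 fill the cytosol of mature cells. In mice before birth, neutrophils are formed largely in the fetal liver and then the bone marrow, and reach the lung by the blood. Lipocalin 2 and lactoferrin are also made by epithelia.

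Transcription of granule genes is known to depend on C/EBP factors and PU.1. The 250 bases before the annotated start of the 5 members whose groups did not overlap on the arrays are printed to show where the letters of these factors' motifs lie. The sequences are from RefSeq on build GRCm38.p6, 5′ to 3′ on the gene's own strand, with capitals at each match to TTGCNNAA (C/EBP) or AGGAAGT (PU.1) or its reverse complement.

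Lcn2, chr2:32387740-32387989, minus strand: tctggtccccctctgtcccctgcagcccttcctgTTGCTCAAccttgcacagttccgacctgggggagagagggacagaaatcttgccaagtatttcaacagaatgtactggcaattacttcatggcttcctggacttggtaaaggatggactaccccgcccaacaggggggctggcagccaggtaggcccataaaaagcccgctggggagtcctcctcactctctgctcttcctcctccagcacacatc
S100a8, chr3:90668821-90669070, plus strand: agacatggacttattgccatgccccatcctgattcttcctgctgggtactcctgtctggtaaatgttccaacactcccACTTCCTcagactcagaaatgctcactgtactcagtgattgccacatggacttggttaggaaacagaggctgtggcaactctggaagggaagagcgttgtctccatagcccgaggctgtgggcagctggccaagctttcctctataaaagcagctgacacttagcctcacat
S100a9, chr3:90695722-90695971, minus strand: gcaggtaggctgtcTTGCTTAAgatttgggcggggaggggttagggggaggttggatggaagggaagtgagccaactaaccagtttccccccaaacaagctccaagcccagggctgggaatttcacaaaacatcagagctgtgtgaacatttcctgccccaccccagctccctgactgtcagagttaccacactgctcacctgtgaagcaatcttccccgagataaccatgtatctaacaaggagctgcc
Ngp, chr9:110419558-110419807, plus strand: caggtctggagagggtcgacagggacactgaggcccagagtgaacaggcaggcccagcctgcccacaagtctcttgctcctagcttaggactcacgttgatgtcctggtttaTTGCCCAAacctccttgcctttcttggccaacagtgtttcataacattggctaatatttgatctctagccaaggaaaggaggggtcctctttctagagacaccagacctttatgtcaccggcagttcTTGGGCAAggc
Ltf, chr9:111019042-111019291, plus strand: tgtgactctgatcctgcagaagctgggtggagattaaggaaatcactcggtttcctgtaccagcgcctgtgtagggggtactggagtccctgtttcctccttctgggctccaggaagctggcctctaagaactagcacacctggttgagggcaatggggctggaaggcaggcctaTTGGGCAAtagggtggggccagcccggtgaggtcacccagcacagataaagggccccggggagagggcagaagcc

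Ngp held the C/EBP letters at 2 places and Lcn2, S100a9 and Ltf at 1 place each. The match in Ltf and both of those in Ngp read TTGCCCAA on one strand or the other. Counted over the same 250 bases of all 10 members, 4 held the C/EBP letters, against 9.56% of 32851 promoters in the table, and 5 held the PU.1 letters, against 7.69%. The 5 with the PU.1 letters were S100a8 and all 4 azurophil granule genes, Mpo, Elane, Prtn3 and Ctsg, and no member held both sets of letters. The letters of the full nuclear factor I palindrome, TTGGC and GCCAA 5 bases apart, were in none of the 10 windows and in 0.037% of all. At so low a share nearly any 10 windows would lack them, so their absence tells nothing about the members. TTGGC or GCCAA alone was not counted. The motif letters were chosen with these promoters in view, the matches describe letters only, and binding was not measured. Along the chromosomes, S100a8 and S100a9 are next to each other with no protein-coding gene between them, as are Elane and Prtn3, and Camp, Ngp and Ltf all lie on chromosome 9, with 8 protein-coding genes between Camp and Ngp and 20 between Ngp and Ltf.

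Signals are log2 values of the MAS5 signal, as deposited. Every array had been scaled to the same trimmed mean signal (150.04 to 150.05), and the array medians on the log2 scale were 4.80 to 5.03. The targeted gene did not check the labels: of 7 Nfib probe sets 5 were higher in the Dermo1-Cre lungs past the threshold and none lower, and whether their probes match the floxed part of the gene is not known here. Genes of the lung list were high on all arrays (list mean 10.19 to 10.52 in control and 9.82 to 9.92 in Dermo1-Cre lungs). Eif2s3y, a Y-linked gene, was at 2.35 on control replicate 1 and 0.85 on Dermo1-Cre replicate 2 and at 8.997 or above on the other 4. Kdm5d, also Y-linked, was low on the same arrays (0.44 and 1.83, against 8.08 or above). Xist was high on them (11.83 and 12.09, against 5.001 or below). So each group held 1 array with low Y-linked and high Xist signal, in the Dermo1-Cre group replicate 2. The 12 cardiac muscle genes averaged 7.32 to 9.02 in control and 5.75 to 7.57 in Dermo1-Cre lungs; the part of this in the differences below was examined only as a covariate, given beside the members' calls.

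Of the 10 genes, the 6 of the cytosol and of specific granules were measured well enough to test, and their mean was lower in the Dermo1-Cre lungs for each. Lcn2 fell 3.40-fold, Ngp 2.09-fold and S100a8 1.58-fold past an adjusted p of 0.05 in limma, and S100a9, Ltf and Camp did not pass. The 4 azurophil granule genes lay at the low end of the scale, below the level required for a test, on average over the 6 arrays. Among all 27022 tested probe sets, 2.16% were lower and 1.41% higher past the same threshold, and 12.8% had groups that did not overlap with Dermo1-Cre lower; among the members these counts were 3, 0 and 5 of the 6 tested. The median difference over all 10 members was -0.66 on the log2 scale, and it was 0.01 over all 45037 probe sets that are not controls. The 6 averaged above the level required for the test in both groups. Fewer cells of a type and less RNA per cell cannot be told apart in RNA of whole lung.

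**Figure D1:**
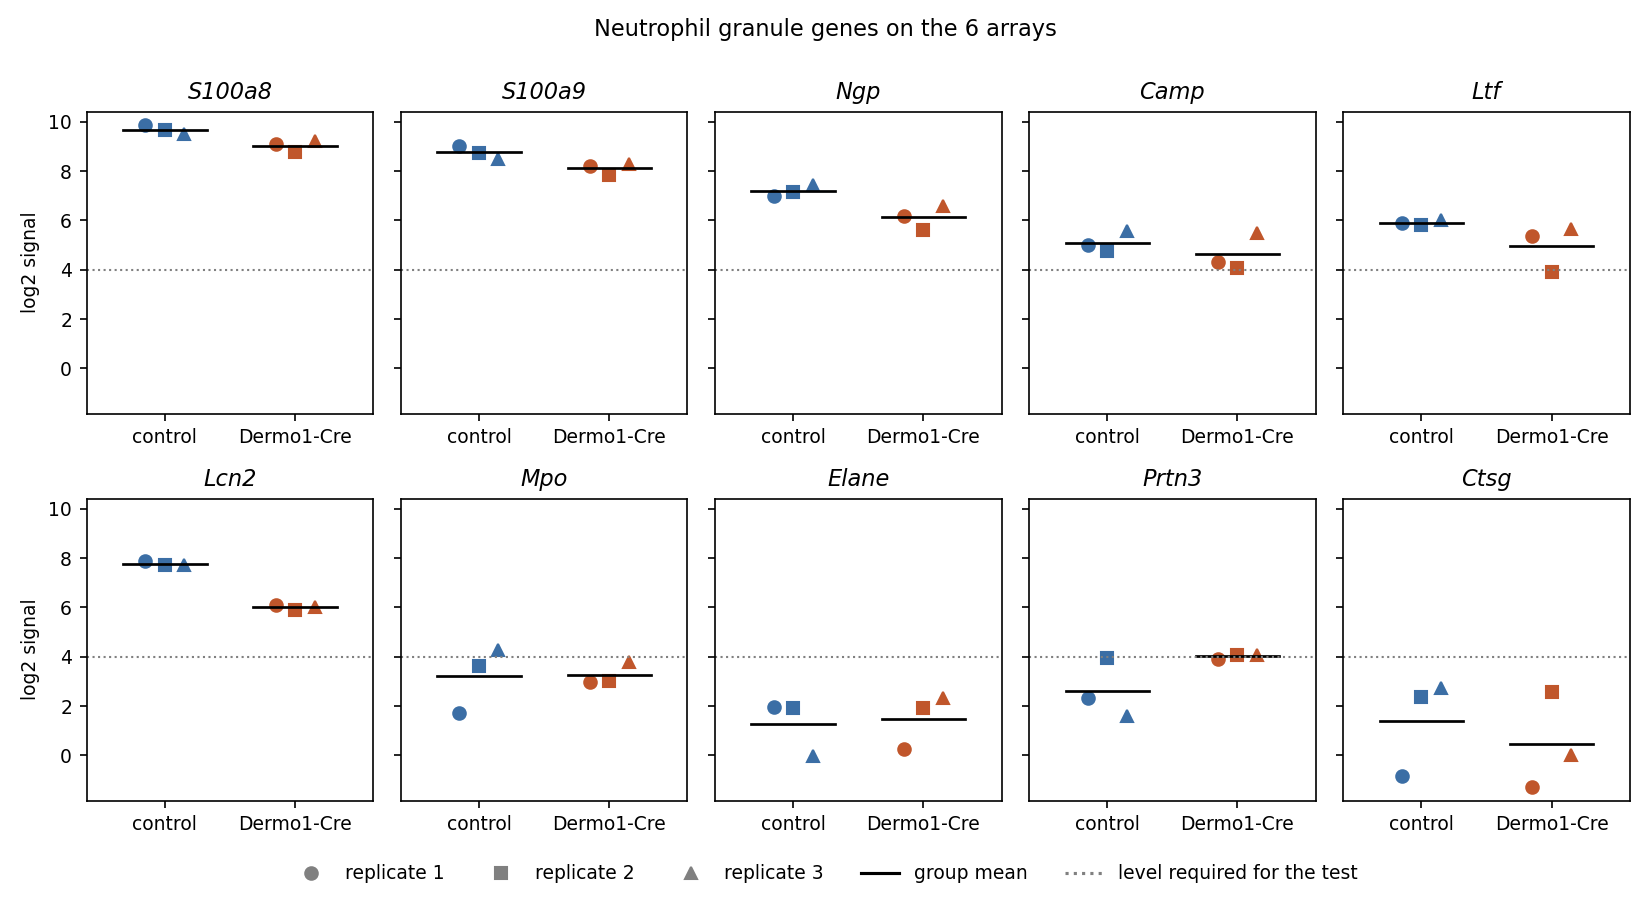
The log2 signal of each of the 10 genes (vertical axis) is plotted for the control and the Dermo1-Cre lungs (horizontal axis), with 1 point per array, a marker shape per replicate number, a bar at the group mean, and a dotted line at 4.003, the mean level required for the test. Lcn2 shows the widest gap beside the spread of its points (7.71 to 7.87 against 5.88 to 6.10), and Mpo, Elane, Prtn3 and Ctsg scatter around or below the dotted line.

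Lcn2 encodes lipocalin 2, which binds the iron carriers of bacteria. On the 3 control arrays it read 7.87, 7.71 and 7.72, and on the 3 Dermo1-Cre arrays 6.10, 5.88 and 6.03. The groups lay far apart and the arrays within each were close together. Their means were 7.76 ± 0.09 and 6.0 ± 0.11 (SD, n = 3 each), which differ by -1.76 ± 0.13 SE on the log2 scale (limma adjusted p = 0.0021; 95% interval -2.06 to -1.47). Lcn2 stayed past the threshold in all 17 alternative fits, with an adjusted p of 4.0e-04 to 0.037, the highest being with the cardiac muscle list as a covariate. With an offset of 64 added to the linear signal, which damps differences of low signals, the difference was -1.14.

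Ngp encodes neutrophilic granule protein, a relative of the cathelicidins found in specific granules. It read 6.99, 7.17 and 7.44 in control lungs and 6.20, 5.63 and 6.57 in Dermo1-Cre lungs. The groups did not overlap, and the lowest value was on Dermo1-Cre replicate 2. Means were 7.20 ± 0.23 and 6.13 ± 0.47 (SD, n = 3 each), and they differ by -1.06 ± 0.24 SE (limma adjusted p = 0.043). Among the 6 fits without 1 array Ngp passed only in the one without Dermo1-Cre replicate 3 (adjusted p = 0.036), and without each of the other 5 arrays in turn the adjusted p was 0.079 to 0.13, with differences of -1.17 to -0.81; with the cardiac muscle list as a covariate the difference was -1.11 ± 0.35 SE (adjusted p = 0.16). With the offset of 64 the difference was -0.64.

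S100a8 and S100a9 encode the pair of proteins that form calprotectin, which withholds zinc and manganese from microbes. S100a8 read 9.86, 9.69 and 9.51 in control lungs and 9.11, 8.76 and 9.20 in Dermo1-Cre lungs, with no overlap. Its means were 9.68 ± 0.18 and 9.02 ± 0.24 (SD, n = 3 each), and they differ by -0.66 ± 0.14 SE (limma adjusted p = 0.036). The call was lost in each of the 6 fits without 1 array (adjusted p 0.051 to 0.11), while the difference stayed between -0.75 and -0.53; with the cardiac muscle list as a covariate the difference was -0.50 ± 0.19 SE (adjusted p = 0.23). The name of its probe set marks probes that can also match transcripts of other genes.

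S100a9 read 9.03, 8.75 and 8.50 in control lungs and 8.21, 7.82 and 8.29 in Dermo1-Cre lungs, again with no overlap. The difference of -0.65 ± 0.16 SE was close in size to that of S100a8 and did not pass (limma adjusted p = 0.063; 95% interval -1.02 to -0.28). The 6 arrays fell in the same order for both genes, control replicate 1 highest and Dermo1-Cre replicate 2 lowest. S100a8 minus S100a9 stayed between 0.83 and 1.005 on the log2 scale on all 6 arrays, while each gene alone spanned 1.10 and 1.21 over them.

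Ltf encodes lactoferrin, an iron-binding protein of specific granules and of glandular epithelia. It read 5.90, 5.81 and 6.02 in control lungs and 5.35, 3.90 and 5.64 in Dermo1-Cre lungs. All 3 Dermo1-Cre arrays were below all control arrays, but they lay apart from each other, with replicate 2 far below the rest. The log2 difference of -0.94 ± 0.40 SE did not pass (limma adjusted p = 0.23), and it was -0.41 without Dermo1-Cre replicate 2 and -0.34 with the offset of 64.

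Camp encodes the precursor of the antimicrobial peptide cathelicidin. It read 5.01, 4.74 and 5.56 in control lungs and 4.33, 4.07 and 5.50 in Dermo1-Cre lungs. Dermo1-Cre replicate 3 lay within the control range, so the groups overlapped. The log2 difference was -0.47 ± 0.39 SE (limma adjusted p = 0.56), with a 95% interval of -1.35 to 0.41. It ranged over -0.91 without Dermo1-Cre replicate 3, -0.19 without Dermo1-Cre replicate 2 and -0.13 with the offset of 64.

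The Dermo1-Cre arrays differed among themselves in a shared way. Replicate 2 was the lowest of all 6 arrays for each of the 6 tested genes. Replicate 3 was the highest of the 3 Dermo1-Cre arrays for 5 of them, all but Lcn2. Among the control arrays, replicate 1 was highest of all arrays for S100a8, S100a9 and Lcn2 and replicate 3 for Ngp, Camp and Ltf.

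**Figure D2:**
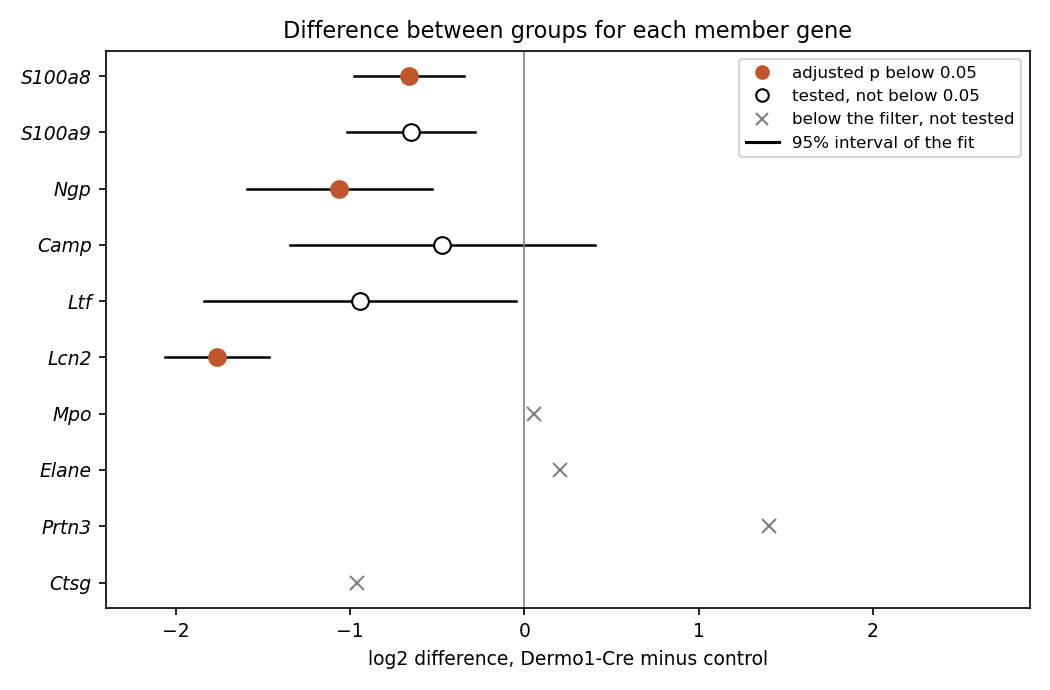
The log2 difference, Dermo1-Cre minus control, is plotted on the horizontal axis for each of the 10 genes, with lines for the 95% interval of the fit (3 against 3 arrays, not adjusted for the number of tests), filled points for an adjusted p below 0.05, open points for tested genes above it, and crosses for the 4 genes below the filter, which were not tested. The interval of Lcn2 (-2.06 to -1.47) is the farthest from 0 of the 6, and that of Camp spans 0.

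The fall of Lcn2 was compared with that of each other tested member by taking the difference of the 2 log2 signals on every array. Lcn2 minus S100a8 was -1.99, -1.98 and -1.79 on control arrays and -3.01, -2.88 and -3.17 on Dermo1-Cre arrays. The groups did not overlap, and Lcn2 was lower relative to S100a8 by a further 1.10 on the log2 scale. The same held against S100a9 (shift of -1.11), Ngp (-0.70) and Camp (-1.29), without overlap, while against Ltf (-0.82) the groups overlapped. In exact permutation tests, two-sided, p was 0.10 for the first 4 pairs, the smallest that 3 against 3 arrays allow, and 0.40 for Ltf; adjusted over the 5 pairs these were 0.125 and 0.40, so no pair could pass 0.05. These tests were added after the values were seen.

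Mpo, Elane, Prtn3 and Ctsg encode myeloperoxidase and the 3 serine proteases of azurophil granules. Mpo read 1.73, 3.63 and 4.26 in control and 2.99, 3.03 and 3.77 in Dermo1-Cre lungs. Elane read 1.95, 1.93 and -0.01 in control and 0.25, 1.92 and 2.32 in Dermo1-Cre lungs. Both overlapped between the groups, with group means 0.06 and 0.20 higher in Dermo1-Cre lungs on the log2 scale. Prtn3 read 2.32, 3.95 and 1.58 in control lungs and 3.90, 4.08 and 4.09 in Dermo1-Cre lungs, a mean 1.41 higher, with control replicate 2 within the Dermo1-Cre range. Ctsg spread from -0.84 to 2.72 in control and from -1.27 to 2.59 in Dermo1-Cre lungs. Array values this low carry much noise, and the pooled SD within groups ran from 0.86 (Prtn3) to 1.96 (Ctsg) for these 4 genes. When all probe sets were fitted without the filter, none of the 4 passed (limma adjusted p 0.34 to 0.98), while Lcn2 did and S100a8 (0.056) and Ngp (0.059) did not.

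Other genes of the neutrophil followed in part. Of 17 further granule genes with a probe set 14 were tested, of which 3 fell and 11 missed the threshold; the median difference was -0.66 on the log2 scale, beside 0.0011 over all tested probe sets. The chitinase-like gene Chil3, an abundant product of mouse neutrophils and macrophages, read 5.62, 5.35 and 5.20 in control and 3.78, 3.59 and 3.80 in Dermo1-Cre lungs (-1.67 ± 0.24 SE, limma adjusted p = 0.010). Pglyrp1, a peptidoglycan-binding granule protein gene, fell by 1.23 (SE 0.27, adjusted p = 0.043), and the lysozyme gene Lyz2, which macrophages and alveolar type II cells also express, by 0.88 (SE 0.14, adjusted p = 0.015). Among the 6 fits without 1 array Chil3 passed in all 6, Lyz2 in 3 (adjusted p 0.016 to 0.063) and Pglyrp1 in 1, that without Dermo1-Cre replicate 3 (0.048 to 0.12), and the list's count of calls was 1 or 2. Chil3 averaged below the level of the filter in Dermo1-Cre lungs and differed by -0.46 with the offset of 64. Haptoglobin (Hp) differed by -0.72 without passing, and averaged 10.88 in control lungs, where the highest member, S100a8, averaged 9.68. From which cells the signals of this list and of the receptor and effector genes below came was not tested. The gelatinase gene Mmp9 differed by -1.23 without passing, through control replicate 1 (7.71, against 4.41 and 4.61 on the other control arrays), and by -0.16 without that array. Mmp8 (-0.23), Olfm4 (-0.25), Fcnb (-0.33) and Adam8 (0.01) did not pass either, and their groups overlapped. The difference of Mmp8 was 0.0016 without control replicate 1, and that of Fcnb was -0.02 without control replicate 3. Itgb2l, Ms4a3 and Mgam were below the filter.

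Of 16 neutrophil receptor and effector genes with a probe set 12 were tested, of which 4 fell and 8 missed the threshold, with a median of -0.49. Ncf1 and Ncf4 encode cytosolic subunits of the NADPH oxidase, which makes superoxide in phagocytes. Ncf1 read 7.40, 7.43 and 7.94 in control and 6.50, 6.36 and 6.50 in Dermo1-Cre lungs (-1.14 ± 0.17 SE, limma adjusted p = 0.011), and Ncf4 fell by 0.74 (SE 0.17, adjusted p = 0.045). The formyl peptide receptor gene Fpr2 fell by 0.70 (SE 0.12, adjusted p = 0.017) and Alox5ap, needed for leukotriene synthesis, by 0.52 (SE 0.12, adjusted p = 0.049). Ncf1 passed in all 6 fits without 1 array, Fpr2 in 3 (adjusted p 0.032 to 0.068; lost without control replicate 1 or 2 or Dermo1-Cre replicate 1), and Ncf4 (0.079 to 0.13) and Alox5ap (0.062 to 0.14) in none, so the list's count fell to between 1 and 3. Trem1 differed by -0.01 and the lectin gene Clec4d by 0.42 (0.10 with the offset of 64) without passing. Csf3r, the receptor of the neutrophil growth factor G-CSF, differed by -0.45 without passing, averaged 3.81 in Dermo1-Cre lungs, below the filter level, and was 0.27 higher without Dermo1-Cre replicate 2. Cxcr2, Clec4e, Itgam and Padi4 were below the filter.

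**Figure D3:**
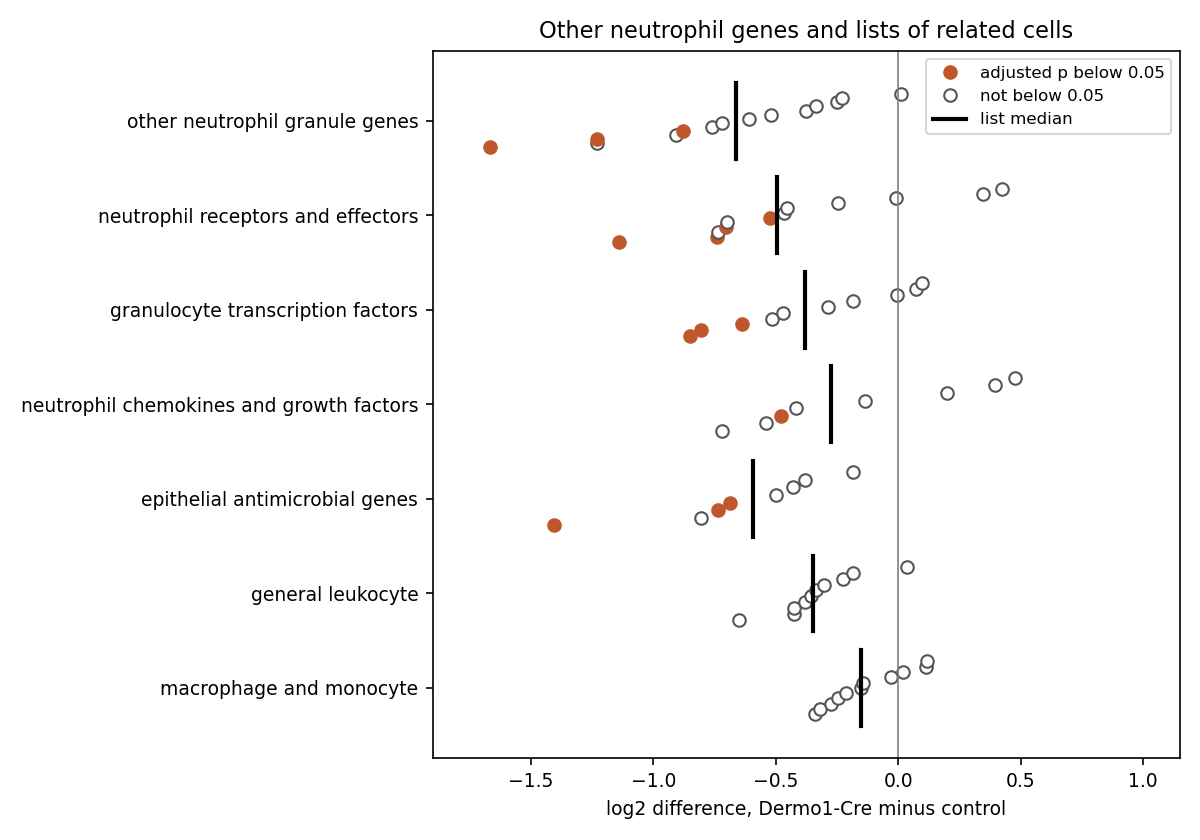
The log2 difference, Dermo1-Cre minus control, of each tested gene (horizontal axis, 1 point per gene) is plotted by gene list, with filled points for a limma adjusted p below 0.05 and a bar at the median of the list. The lists of other granule genes (median -0.66) and of receptors and effectors (-0.49) hold 3 and 4 filled points, and the general leukocyte (-0.35) and macrophage (-0.15) lists hold none.

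Of 10 tested transcription factor genes of the granulocyte lineage 3 fell, Cebpd (-0.85 ± 0.16 SE, limma adjusted p = 0.025), Klf5 (-0.81 ± 0.17 SE, adjusted p = 0.039) and Cebpa (-0.64 ± 0.14 SE, adjusted p = 0.042), all of which lung epithelium also expresses. Cebpd passed in 2 of the 6 fits without 1 array (adjusted p 0.041 to 0.079), Klf5 in that without Dermo1-Cre replicate 3 (0.047 to 0.12) and Cebpa in that without Dermo1-Cre replicate 1 (0.037 to 0.12). Spi1, which encodes PU.1, differed by -0.47 (-0.17 with the offset of 64), Cebpb by 0.07 and Myb, a factor of progenitors, by -0.01 without passing, and Gfi1 was below the filter. Of 8 tested genes of neutrophil chemokines, growth factors and adhesion 1 fell, the adhesion molecule gene Icam1 (-0.48 ± 0.09 SE, adjusted p = 0.027), which did not pass in any fit without 1 array (0.055 to 0.087). Cxcl12, the chemokine that holds neutrophils in the marrow, had a difference of 0.48 ± 0.13 SE (adjusted p = 0.077) with groups that did not overlap. The neutrophil attractants Cxcl2, Cxcl3 and Cxcl5 and the G-CSF gene Csf3 were below the filter.

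Since Lcn2 and Ltf are also epithelial, 12 antimicrobial genes of epithelia were examined beside them. Of 8 tested, 3 fell, the collectin genes Sftpd (-1.41 ± 0.24 SE, limma adjusted p = 0.019) and Sftpa1 (-0.68 ± 0.16 SE, adjusted p = 0.048) and the lysozyme gene Lyz1 (-0.74 ± 0.14 SE, adjusted p = 0.025), whose probes may also read the near-identical Lyz2. In the fits without 1 array Sftpd passed in 4 (adjusted p 0.026 to 0.065), and Lyz1 (0.035 to 0.092) and Sftpa1 (0.047 to 0.14) in 1, that without control replicate 1. Slpi, a protease inhibitor of neutrophils and airway epithelium, differed by -0.38 and Wfdc2 by -0.43 without passing. The median of the 8 was -0.59. Of the 12 tested genes of the lung list 3 fell, none rose and 9 missed the threshold. The type II cell genes Sftpb (-1.27 ± 0.20 SE, adjusted p = 0.015) and Abca3 (-0.67 ± 0.10 SE, adjusted p = 0.014) and the type I cell gene Aqp5 (-1.49 ± 0.23 SE, adjusted p = 0.012) fell; Sftpb and Aqp5 passed in all fits without 1 array but that without control replicate 3 (0.051 and 0.050), and Abca3 in 4 of 6 (0.029 to 0.053). The type II cell gene Sftpc differed by -0.07 ± 0.30 SE (adjusted p = 0.93), and the epithelial gene Epcam by 0.32 ± 0.12 SE (adjusted p = 0.18), with Dermo1-Cre lungs higher without overlap. From which cells the Lcn2 signal came was not tested.

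Markers of other blood and immune cells were measured on the same arrays. All 10 general leukocyte genes were tested, 9 had a lower mean in Dermo1-Cre lungs and none passed, with a median of -0.35. Cd52 differed by -0.65 ± 0.20 SE (limma adjusted p = 0.11) and Cd53 by -0.34 ± 0.12 SE (adjusted p = 0.16). The mean of this list was 7.29 to 7.79 on control and 7.16 to 7.40 on Dermo1-Cre arrays, with overlap. Of 11 tested macrophage and monocyte genes none passed, the differences ran from -0.34 (Cd68) to 0.12, the median was -0.15, and Cd14 differed by -0.32. Marco, the 1 gene of this list below the filter, was not tested. It read 3.79, 4.24 and 4.21 in control and 1.13, 0.92 and 3.45 in Dermo1-Cre lungs (-2.24, without overlap), with a pooled SD within groups of 1.01. Other list genes below the filter without overlap went both ways. Cxcl3 (-0.74) and Selp (-1.41) were lower in Dermo1-Cre lungs, and Cxcl5 (2.86) and Il7r (1.67) were higher. The 10 members averaged 4.98 to 5.57 on control and 4.52 to 5.14 on Dermo1-Cre arrays, with overlap. This mean includes the 4 members below the filter. The list of other granule genes averaged 6.24 to 6.40 on control and 5.49 to 5.75 on Dermo1-Cre arrays, without overlap. The receptor and effector list averaged 4.83 to 5.09 and 4.56 to 4.77, also without overlap. The granulocyte transcription factor list did not overlap either (6.92 to 7.19 and 6.575 to 6.87). Nor did the lung list (10.19 to 10.52 and 9.82 to 9.92) and the platelet and megakaryocyte list (5.51 to 5.89 and 4.71 to 5.35). Whether neutrophil genes differed from general leukocyte genes was not tested.

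Of the eosinophil, basophil and mast cell list only the mast cell protease genes Cma1 (-0.11) and Cpa3 (0.04) were tested, and of the lymphocyte list only Cd79b (-0.23) and Vpreb1 (0.04); none passed, Cma1, Cpa3 and Vpreb1 changed sign in fits without 1 array, and the other 8 and 7 were below the filter. The erythroid list averaged 4.41 to 5.78 on control and 3.49 to 4.66 on Dermo1-Cre arrays. Of its 5 tested genes none passed, with Alas2, the heme synthesis gene of red cells, at -0.63 ± 0.21 SE (limma adjusted p = 0.14) and Kel at -1.10 ± 0.45 SE. Kel averaged 3.91 in Dermo1-Cre lungs, below the filter level, and differed by -0.32 with the offset of 64 and by -0.62 without control replicate 3. On Dermo1-Cre replicate 2, where the 6 tested granule genes were lowest, 2 of the 5 tested erythroid genes were lowest (Alas2 and Slc4a1). Kel and Ermap were lowest on Dermo1-Cre replicate 1 and Klf1 on control replicate 2. The list mean was lowest on Dermo1-Cre replicate 1 (3.49, against 3.83 on replicate 2), but it includes 3 genes below the filter. These were Hemgn (-2.24 on Dermo1-Cre replicate 1 and 0.11 on replicate 2), Epb42 (0.30 and 2.255) and Rhag (2.32 and 1.55). The platelet and megakaryocyte list averaged 5.51 to 5.89 and 4.71 to 5.35. Its lowest mean, on Dermo1-Cre replicate 3, includes Gp9, which was below the filter and read -0.11 there. Itgb3 was lower (-1.35 ± 0.27 SE, adjusted p = 0.030, passing in 2 of the 6 fits without 1 array, 0.044 to 0.10). Gp1bb differed by -0.50 (-0.12 with the offset of 64). The cardiac gene Myh7 fell by 1.03 (SE 0.21, adjusted p = 0.031, passing in 2 of those fits, 0.032 to 0.093), and Myl3 differed by -1.32 without passing, averaged 3.97 in Dermo1-Cre lungs, below the filter level, and differed by -0.39 with the offset of 64. Liver list means varied between single arrays, from 1.39 to 6.004 in control and from 2.79 to 5.15 in Dermo1-Cre lungs. They include 4 genes below the filter, such as Fga at -2.12 on control replicate 1. The tested gene Afp read 2.13 on that array and 8.09 on control replicate 2. Alb differed by -0.55 and Ttr by -0.66 without passing, and by 0.51 and 0.18 without control replicate 2. The part of blood content in the granule gene differences was not tested.

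**Figure D4:**
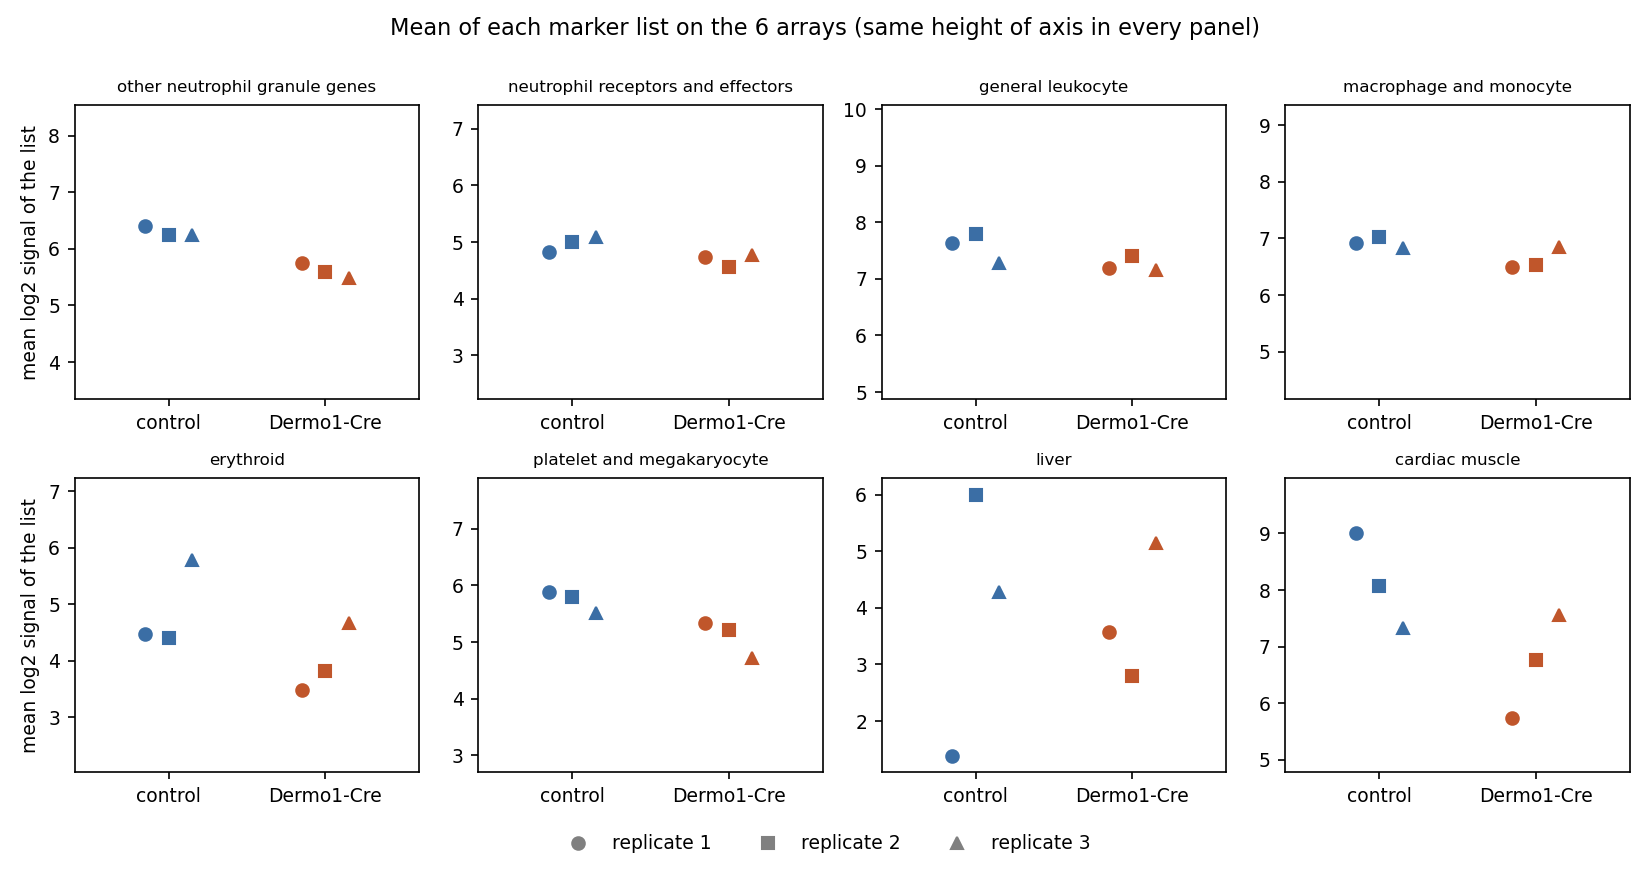
The mean log2 signal of each of 8 gene lists (vertical axis, of the same span in every panel) is plotted for control and Dermo1-Cre lungs, with 1 point per array and a marker shape per replicate number. The further granule genes separate the groups (6.24 to 6.40 against 5.49 to 5.75). So do the receptor and effector list (4.83 to 5.09 against 4.56 to 4.77) and the platelet and megakaryocyte list (5.51 to 5.89 against 4.71 to 5.35). The general leukocyte and macrophage lists overlap, and the erythroid, liver and cardiac muscle lists scatter widely between arrays of 1 group. Means include genes below the filter.

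The genes whose 6 array values most resembled the average profile of the 6 tested members were Ebf1, a transcription factor gene (Pearson r = 0.998), the semaphorin and VEGF receptor gene Nrp1 (0.997), the tau gene Mapt (0.990), the mannosidase gene Man1a (0.987) and Chmp4c (0.986). Each was lower in Dermo1-Cre lungs without overlap, by 0.30 to 0.65 on the log2 scale, and none passed the limma threshold. With 6 arrays in 2 groups such values are a description of the order of arrays, searched over all tested genes.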

How the data were processed

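RNA of 6 fetal lungs was labelled and hybridised to Affymetrix mouse arrays, per the labels' protocols. The deposited values are log2 signals made by the authors with MAS5 and affy, both listed without a version in the submitters' processing notes; further steps are not given in these sources. Values were used as deposited. The 64 control probe sets among 45101 were not used. The platform annotation gave 1 symbol to 34945 others, several to 932 and none to 9160. For the lists, the probe set with the highest mean stood for a gene. In the members and 15 other lists 172 of 190 entries were matched, 1 of them (Siglec5) by gene identifier. The mean of a list on an array was taken over all its matched genes, those below the filter included.

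Probe sets whose mean over the 6 arrays reached the 40th percentile (4.003) were tested, 27022 in all, in R 4.3.3 with limma 3.58.1 (lmFit and trended eBayes, two-sided tests, no covariate, residual df 4 and prior df 5.32) and Benjamini-Hochberg adjustment over all of them at 0.05. "Fell", "rose" and "passed" refer to this. Differences are Dermo1-Cre minus control and folds are powers of 2 of them, on log2 signals without offset unless stated. The fit was tested on simulated data. SciPy 1.17.1 in Python 3.11.15 ran the exact permutation tests and matplotlib 3.10.9 drew the figures. Alternatives were other normalizations, offsets of 1 and 64, filters, variance models, thresholds and covariates, the replicate block and each array left out; they used the same probe sets except where the filter was changed. The number of arrays limits the precision.

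Named are all members, list genes past the threshold, the 2 of each list with the smallest p, and the 5 genes most like the members; other list genes were picked after their values were seen. Members and lists were chosen with earlier results of these data known.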

Additional observations from a re-analysis of the deposited data

How the results depend on the processing

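All 6 tested members stayed lower in Dermo1-Cre lungs in each fit that held them. Across the array 963 probe sets passed, and 3 of the members' probe sets. The members' count was 1, Lcn2 alone, with no filter, with no intensity trend and with the cardiac muscle list as a covariate, and 1 to 2 without 1 array. The count across the array was 171 with no intensity trend, 121 with the cardiac covariate and 607 with Xist as a covariate. It was 2120 at an adjusted p of 0.10 and 314 to 495 without 1 array, in fits that had fewer arrays. Why these counts differed was not tested. S100a9 passed with a filter at the 60th percentile (adjusted p = 0.0495) and with array weights (0.030), and S100a8 missed with a common median (0.053) and with the Xist covariate (0.059). With the replicate number as a block 1309 probe sets passed and the members' count was 3, the same genes. Deviations of same-numbered arrays correlated at -0.01, 0.20 and 0.14, and those of differently numbered arrays at -0.27 to 0.14. These values cannot decide on pairing, since the deviations within a group depend on each other. The labels give no litter, so the numbers were not taken as pairs. Quantile normalization, offsets and a 1.5-fold minimum kept these 3. The mean of all probe sets of a gene was not run for the members, which have 1 each.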
